A study of Mus musculus with 4 samples.

Results

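The genes that write and remove DNA methylation were examined in 4 cell populations sorted from the E11 mouse aorta-gonad-mesonephros (AGM), the region in which the first hematopoietic stem cells form. They were chosen by name, 5 writers (Dnmt1, Uhrf1, Dnmt3a, Dnmt3b and Dnmt3l) and 4 erasers (Tet1, Tet2, Tet3 and Tdg), and 8 of the 9 were found among the 51205 genes of the table, while Tet1 was not analysed here. Bulk RNA-seq was available as 1 library for each of Runx1+ intra-aortic hematopoietic cluster cells (Runx1+ IAHCs), hemogenic endothelial cells (HECs), Runx1- IAHCs and endothelial cells (ECs). All cells were NG2-PDGFRβ-CD31+, which excludes pericytes and keeps endothelial and cluster cells. IAHCs were ckit+ and either Runx1(GFP)+ or Runx1(GFP)-, without a gate on CD45. HECs were ckit-CD45-Runx1(GFP)+ and ECs were ckit-CD45-Runx1(GFP)-. All embryos had a Runx1-GFP reporter and a WT genotype by the labels. By the supplement of the study the embryos were pooled and were heterozygous or homozygous for the reporter, and how many reporter alleles each library carried is not known.

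Cytosine methylation at CpG sites is set by the de novo methyltransferases Dnmt3a and Dnmt3b and copied after DNA replication by Dnmt1, which Uhrf1 brings to hemimethylated CpG sites. Dnmt3l has no catalytic activity of its own and stimulates the de novo enzymes, mostly in germ cells. Tet enzymes oxidise methylated cytosine, and Tdg, a DNA glycosylase, cuts out the oxidised bases, after which base excision repair restores an unmodified cytosine. In adult mouse hematopoiesis, loss of Dnmt3a or Tet2 enlarges the stem cell pool, and primordial germ cells, which pass through this region of the embryo, lose most of their DNA methylation. Only RNA was measured here, not methylation or protein.

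Levels are given as TPM (a transcript share, corrected for gene length and for the size of the library), so that genes can be compared per length. Read numbers were recovered from the TPM values, which were whole multiples of the value of 1 read once multiplied by exonic length, and 1 read had been added to every gene. Recovered reads were most in the Runx1- IAHC library (15917924) and fewest in the EC library (12420598), over the 49371 genes with an annotated length. Genes with a read ranged from 18835 in Runx1- IAHCs to 23152 in ECs. By the counts in the study Runx1- IAHCs were the fewest cells and ECs the most, and the part of cell number in any difference was not tested. Runx1, the gene behind the sort, had 10.1 TPM in Runx1+ IAHCs, 13.0 TPM in HECs, 0.128 TPM in Runx1- IAHCs and 0.311 TPM in ECs. With 1 library per population no difference has a replicate check or a test. The intervals are exact 95% intervals on reads and cover the counting error of reads only. PCR copies of a molecule cannot be recognised in these libraries, so the intervals may be too narrow for the counting of molecules. In pooled cells, fewer cells of a type and less RNA per cell cannot be told apart.

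Promoter sequences were read for the 9 genes from RefSeq on GRCm38.p6, as the 250 bases before each annotated start (16 windows). Those of Dnmt3b and Tdg, the writer and the eraser that reached the highest level in any library, are printed with that of Tex19.1, a germline gene whose promoter is methylated in somatic mouse cells. Capitals mark CpG dinucleotides, the substrate of these enzymes, and each sequence runs 5′ to 3′ on the plus strand.
Dnmt3b, chr2:153649199-153649448: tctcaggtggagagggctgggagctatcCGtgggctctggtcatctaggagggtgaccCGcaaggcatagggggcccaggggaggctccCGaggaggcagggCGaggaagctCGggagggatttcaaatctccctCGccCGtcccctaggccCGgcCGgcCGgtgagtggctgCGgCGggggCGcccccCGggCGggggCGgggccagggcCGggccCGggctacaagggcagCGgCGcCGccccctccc
Tdg, chr10:82629588-82629837: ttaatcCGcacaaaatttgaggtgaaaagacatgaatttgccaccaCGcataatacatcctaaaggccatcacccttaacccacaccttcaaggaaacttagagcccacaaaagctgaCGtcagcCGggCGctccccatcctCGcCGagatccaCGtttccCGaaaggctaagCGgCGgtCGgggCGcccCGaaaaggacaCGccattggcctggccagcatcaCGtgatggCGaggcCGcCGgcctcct
Tex19.1, chr11:121145893-121146142: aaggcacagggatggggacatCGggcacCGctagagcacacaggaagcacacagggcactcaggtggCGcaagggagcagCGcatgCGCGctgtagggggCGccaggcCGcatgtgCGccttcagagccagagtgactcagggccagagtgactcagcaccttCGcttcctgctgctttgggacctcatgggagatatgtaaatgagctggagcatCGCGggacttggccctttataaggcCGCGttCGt
The windows held 21 CpG sites for Dnmt3b, 19 for Tdg and 15 for Tex19.1, against a median of 6 over 32851 such windows of all genes. Those of Tet2 (51 sites) and of a start of Dnmt3a (40 sites) were richer still, and the 3 starts of Dnmt3l held 3 to 5 sites. The RUNX motif TGTGGT, searched on both strands, was found in 14.0% of all windows and in none of the printed Dnmt3b and Tdg windows. Among the 16 windows it was found only at a start of Uhrf1. The GC box GGGCGG was found 3 times before Dnmt3b and in 32.7% of all windows. The E-box CACGTG was found before Tdg and in 6.02% of all windows. A match or its absence describes these letters only.

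The maintenance genes Dnmt1 and Uhrf1 were among the most abundant of the 8, and Dnmt1 differed least between libraries. Dnmt1 (ENSMUSG00000004099, GRCm38 chromosome 9, 20907209 to 20959888, minus strand) was at 49.3 TPM in Runx1+ IAHCs, 35.3 TPM in HECs, 56.7 TPM in Runx1- IAHCs and 46.7 TPM in ECs. Its highest library was 1.61-fold above its lowest (95% counting interval 1.53 to 1.69), the narrowest range of the 7 genes with reads. Uhrf1 (ENSMUSG00000001228, chromosome 17, 56303321 to 56323486, plus strand) was at 72.0 TPM in Runx1+ IAHCs, 32.5 TPM in HECs, 49.1 TPM in Runx1- IAHCs and 53.7 TPM in ECs. Both genes were lowest in HECs. Uhrf1 was highest in Runx1+ IAHCs, 2.21-fold above HECs (2.08 to 2.36), whereas Dnmt1 was highest in Runx1- IAHCs. For both genes, counting intervals excluded 1 between every pair of neighbours in the order of levels, although Uhrf1 in ECs was only 1.09-fold above Runx1- IAHCs (1.03 to 1.17).

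The de novo enzymes parted. Dnmt3b (ENSMUSG00000027478, chromosome 2, 153649450 to 153687730, plus strand) was at 106 TPM in Runx1+ IAHCs (103 to 108), 18.8 TPM in HECs (17.6 to 20.0), 1.79 TPM in Runx1- IAHCs (1.41 to 2.20) and 9.90 TPM in ECs (8.96 to 10.9). These levels rested on 5492 recovered reads in Runx1+ IAHCs, 1002 in HECs, 84 in Runx1- IAHCs and 425 in ECs. Dnmt3b therefore separated all 4 libraries beyond the counting error of reads, with Runx1+ IAHCs at the top and Runx1- IAHCs at the bottom. Dnmt3a (ENSMUSG00000020661, chromosome 12, 3806007 to 3914443, plus strand) was at 18.2 TPM in Runx1+ IAHCs, 17.7 TPM in HECs, 22.5 TPM in Runx1- IAHCs and 8.53 TPM in ECs. It was thus lowest in ECs, and its levels in Runx1+ IAHCs and HECs could not be told apart by counting (ratio 1.03, 0.979 to 1.08). Dnmt3l (ENSMUSG00000000730, chromosome 10, 78041947 to 78063622, plus strand) had 0 reads in each library. The upper ends of its exact 95% intervals were 0.121 TPM in Runx1+ IAHCs, 0.118 TPM in HECs, 0.133 TPM in Runx1- IAHCs and 0.146 TPM in ECs. Pseudogene copies and antisense genes of the Dnmt3 genes were at 0.684 TPM or less in every library.

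**Figure D1:**
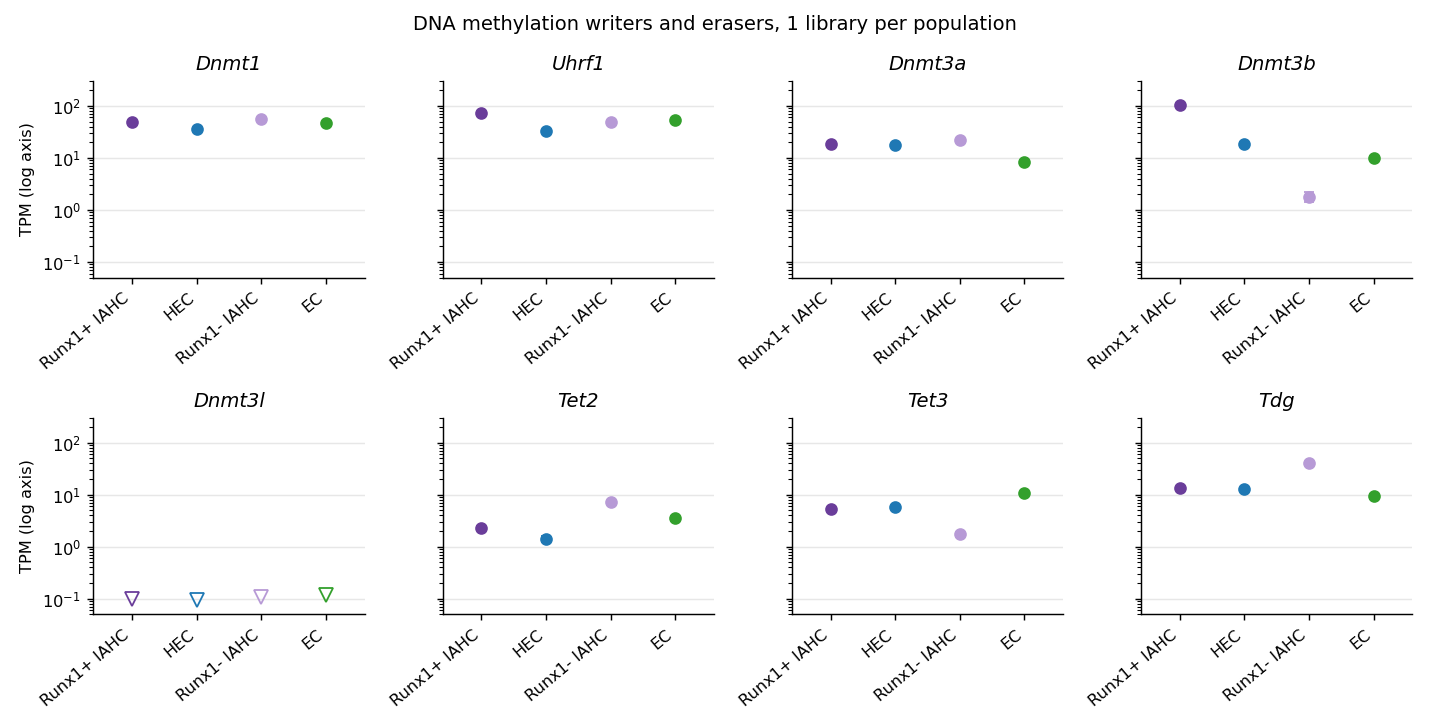
TPM (log axis) of the 8 genes in Runx1+ IAHCs, HECs, Runx1- IAHCs and ECs, 1 point per library. Error bars are 95% counting intervals, mostly smaller than the points. Open triangles mark the level of 3 reads for Dnmt3l, which had no read. Dnmt3b spans 1.79 to 106 TPM, whereas Dnmt1 stays between 35.3 and 56.7 TPM.

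The erasers were lower than the maintenance genes, and Runx1- IAHCs were at the top or the bottom of each. Tdg (ENSMUSG00000034674, chromosome 10, 82629828 to 82650799, plus strand) was at 13.2 TPM in Runx1+ IAHCs, 12.6 TPM in HECs, 40.7 TPM in Runx1- IAHCs and 9.32 TPM in ECs. Tet3 (ENSMUSG00000034832, chromosome 6, 83362373 to 83459084, minus strand) was at 5.19 TPM in Runx1+ IAHCs, 5.80 TPM in HECs, 1.72 TPM in Runx1- IAHCs and 10.7 TPM in ECs. Tet2 (ENSMUSG00000040943, chromosome 3, 133463679 to 133545139, minus strand) was at 2.30 TPM in Runx1+ IAHCs, 1.42 TPM in HECs, 7.22 TPM in Runx1- IAHCs and 3.50 TPM in ECs. Runx1- IAHCs therefore had the highest Tdg and Tet2 and the lowest Tet3, and ECs had the highest Tet3. HECs had the lowest Tet2, 5.08-fold below Runx1- IAHCs (4.43 to 5.85). The ratio of Tdg between Runx1+ IAHCs and HECs was 1.05, with a counting interval that held 1 (0.946 to 1.17).

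The Tdg values are uncertain, because the processed pseudogene Tdg-ps on chromosome 15 was at a like level. Tdg-ps was at 13.8 TPM in Runx1+ IAHCs, 10.8 TPM in HECs, 19.6 TPM in Runx1- IAHCs and 13.0 TPM in ECs, and short reads can be split between the copies. With the reads of both summed, Tdg was 2.48-fold lower in Runx1+ than in Runx1- IAHCs (2.31 to 2.66) and 3.13-fold higher in Runx1- IAHCs than in ECs (2.88 to 3.40). Both directions were those of Tdg alone. Between Runx1+ IAHCs and HECs the summed ratio was 1.12 and its interval no longer held 1 (1.03 to 1.22). No source used here states that strand was used in counting, so overlapping genes on the opposite strand cannot be told apart, but those that share exonic bases with Dnmt3a, Dnmt3l, Tdg or Tet2 were at 1.12 TPM or less.

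Within each library, the balance of related genes was compared, which does not depend on how libraries are scaled. Dnmt3b made up 61.0% of the summed TPM of Dnmt1, Dnmt3a and Dnmt3b in Runx1+ IAHCs, 26.2% in HECs, 2.22% in Runx1- IAHCs and 15.2% in ECs. Dnmt1 made up 28.5% in Runx1+ IAHCs, 49.2% in HECs, 70.0% in Runx1- IAHCs and 71.7% in ECs. Runx1+ IAHCs were thus the only library of the 4 in which a de novo enzyme, not Dnmt1, had the largest share. Dnmt3b exceeded Dnmt3a 5.81-fold in Runx1+ IAHCs (5.56 to 6.07), whereas Dnmt3a exceeded Dnmt3b 12.7-fold in Runx1- IAHCs (10.2 to 15.9). The ratio of Dnmt3b to Dnmt3a was 1.06 in HECs (0.990 to 1.14) and 1.16 in ECs (1.04 to 1.30). Both ckit- populations were therefore near parity at the exonic lengths used here, and the IAHC populations lay on either side. The length used was greater for Dnmt3a than for Dnmt3b, which bears on parity and on the shares. Counting intervals do not cover the choice of length, and other lengths were not tried. The order of the libraries by the ratio of Dnmt3b to Dnmt3a does not depend on that choice. Tet3 exceeded Tet2 2.26-fold in Runx1+ IAHCs and 4.09-fold in HECs. Tet2 exceeded Tet3 4.20-fold in Runx1- IAHCs (3.67 to 4.81), whereas Tet3 exceeded Tet2 3.08-fold in ECs. Uhrf1 relative to Dnmt1 varied less, with ratios of 1.46 in Runx1+ IAHCs, 0.921 in HECs, 0.865 in Runx1- IAHCs and 1.15 in ECs.

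**Figure D2:**
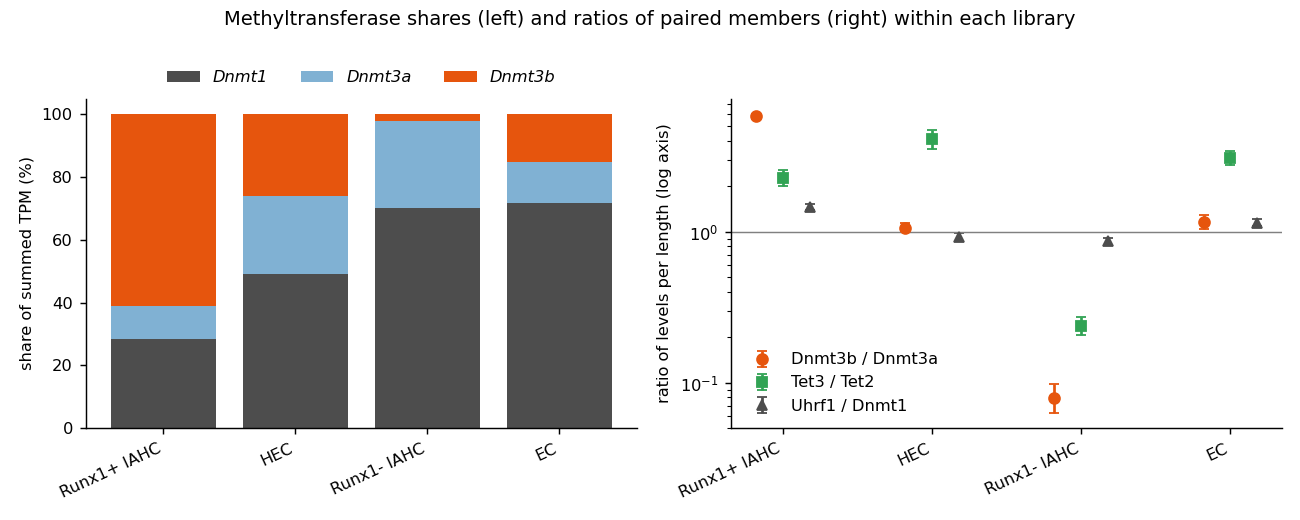
Left, shares (%) of Dnmt1, Dnmt3a and Dnmt3b in their summed TPM, 1 bar per library. Right, ratios of levels per length (log axis) with 95% counting intervals; the grey line marks equal levels. Dnmt3b takes 61.0% in Runx1+ IAHCs and 2.22% in Runx1- IAHCs, and the ratio of Tet3 to Tet2 is below 1 in Runx1- IAHCs alone.

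Runx1+ IAHCs were compared with Runx1- IAHCs, the ckit+ cells sorted with and without Runx1(GFP). These libraries also differed in markers of cell type. Primordial germ cell markers summed to 4.17 TPM in Runx1+ IAHCs and 2903 TPM in Runx1- IAHCs. In the same order, endothelial markers summed to 67.4 and 1893 TPM, and hematopoietic markers to 1227 and 84.4 TPM. The part of these transcripts in the differences was not tested. Dnmt3b was 59.5-fold higher in Runx1+ IAHCs (48.0 to 74.8), a difference of 5.25 on the log2(TPM + 1) scale. Differences of genes with low levels are made smaller by this scale, which is used below for counts and ranks. Of 8726 genes that reached 10 TPM in at least 1 library of the pair, Dnmt3b ranked 36 from the highest difference. Tdg was 3.09-fold lower (2.83 to 3.37), Tet2 3.14-fold lower (2.80 to 3.53) and Tet3 3.02-fold higher (2.63 to 3.48). Uhrf1 was 1.47-fold higher, and Dnmt1 and Dnmt3a were 1.15-fold and 1.24-fold lower. A 4-fold difference was used as a rule of size, applied to genes that reached this level. Of 5 members at that level, 1 was past it upwards (Dnmt3b) and 0 downwards, where 5.6% of all genes compared were past it upwards and 17.5% downwards. The median log2 difference was -0.20 over these 5 members and -0.53 over all genes compared. Relative to the median of all genes, Dnmt3b was 5.78 higher, Uhrf1 1.07 higher and Tdg 1.02 lower. Dnmt1 was 0.33 higher and Dnmt3a 0.24 higher by this measure, so their directions turned.

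HECs were compared with ECs, the ckit-CD45- cells with and without Runx1. No member passed 4-fold. The differences of Dnmt3b, Tdg, Tet2 and Tet3 were smaller than between the IAHC libraries, and those of Dnmt1, Uhrf1 and Dnmt3a were larger. Dnmt3a was 2.07-fold higher in HECs (1.94 to 2.22) and Dnmt3b 1.90-fold higher (1.70 to 2.14). Tet2 was 2.46-fold lower (2.11 to 2.87), Tet3 1.85-fold lower (1.71 to 2.01), Uhrf1 1.65-fold lower (1.54 to 1.77) and Dnmt1 1.32-fold lower (1.26 to 1.40). In these libraries the de novo enzymes were thus higher in HECs, and both Tet genes and both maintenance genes lower. Tdg was 1.35-fold higher (1.20 to 1.53), or 1.12-fold higher with its pseudogene (1.02 to 1.24). Past 4-fold were 0 of 6 members, where 8.87% of the 7793 genes compared were past it upwards and 9.24% downwards. The median log2 difference was 0.00 over the 6 members and 0.12 over all genes compared. The markers of the HEC library went against its endothelial label, since all 8 endothelial markers were more than 2-fold lower in HECs, with a sum of 252 TPM in HECs and 1787 TPM in ECs, and 8 hematopoietic markers summed to 1529 TPM in HECs and 75.9 TPM in ECs. HECs also held megakaryocyte genes, with 5 markers summing to 51120 TPM in HECs and 406 TPM in ECs, and erythroid genes, with 6 markers summing to 17899 TPM in HECs and 35271 TPM in ECs. The part of these transcripts in the differences was not tested.

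The populations that share Runx1(GFP) were compared next. Dnmt3b was 5.62-fold higher in Runx1+ IAHCs than in HECs (5.26 to 6.02), 135 from the highest of 7279 genes, and Uhrf1 was 2.21-fold higher (2.08 to 2.36). Dnmt1 was 1.40-fold higher and Tet2 1.62-fold higher. Dnmt3a and Tdg, with log2 differences of 0.04 and 0.07, had counting intervals that held 1 (for Tdg not with the reads of its pseudogene added), and Tet3 was 1.12-fold lower (1.02 to 1.22). In this pair Dnmt3b was therefore higher while Dnmt3a was level. Of 5 members compared, 1 was past 4-fold upwards (Dnmt3b) and 0 downwards, against 2.79% and 6.22% of all genes. Medians were 0.47 over the members and 0.19 over all genes. S phase genes, which mark replicating cells as Dnmt1 and Uhrf1 do, summed to 1360 TPM over 15 genes in Runx1+ IAHCs and 803 TPM in HECs. The 5 megakaryocyte markers summed to 105 TPM in Runx1+ IAHCs and 51120 TPM in HECs. The 6 erythroid markers summed to 468 TPM in Runx1+ IAHCs and 17899 TPM in HECs. Of the 5 that reached 10 TPM, 4 were past 4-fold lower and 1 past it higher in Runx1+ IAHCs. The part of any of these lists was not tested.

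Runx1- IAHCs were compared with ECs, the populations without Runx1(GFP). Tdg was 4.38-fold higher in Runx1- IAHCs (3.94 to 4.88) and Tet3 6.25-fold lower (5.48 to 7.14). Dnmt3b was 5.57-fold lower (4.40 to 7.12), but its higher library, ECs, lay just under 10 TPM, so that it was not counted by the rule of size. Dnmt3a was 2.64-fold higher (2.47 to 2.82) and Tet2 2.07-fold higher (1.86 to 2.30). Runx1- IAHCs thus had more Dnmt3a and Tet2, and less Dnmt3b and Tet3, than ECs. Dnmt1 was 1.21-fold higher and Uhrf1 1.09-fold lower. Of 5 members compared, 1 was past 4-fold upwards (Tdg) and 1 downwards (Tet3), against 20.9% and 6.39% of the 8936 genes compared. The medians were 0.27 over the members and 0.71 over all genes. Scaling mattered most in this pair. Scaled by median ratios, 1156 genes were past 4-fold upwards and 1058 downwards, against 1867 and 571 as deposited, and scaled to a total free of mitochondrial, ribosomal protein and hemoglobin genes the numbers were 1707 and 896. Under these scalings the log2 difference of Tdg was 1.54 and 1.84 in place of 2.02, short of 4-fold, while Dnmt3b came to -2.36 and -2.23 and passed the rule with Tet3. Relative to the median of all genes, as deposited, Tdg was 1.31 higher, Dnmt3a 0.59 higher, Dnmt3b 2.67 lower and Tet3 2.82 lower. Uhrf1 was 0.84 lower and Dnmt1 0.44 lower by this measure, so the direction of Dnmt1 turned. The 6 erythroid markers summed to 455 TPM in Runx1- IAHCs and 35271 TPM in ECs. Of the 5 that reached 10 TPM, 3 were past 4-fold lower and 2 past it higher in Runx1- IAHCs. The part of these transcripts in the differences was not tested.

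**Figure D3:**
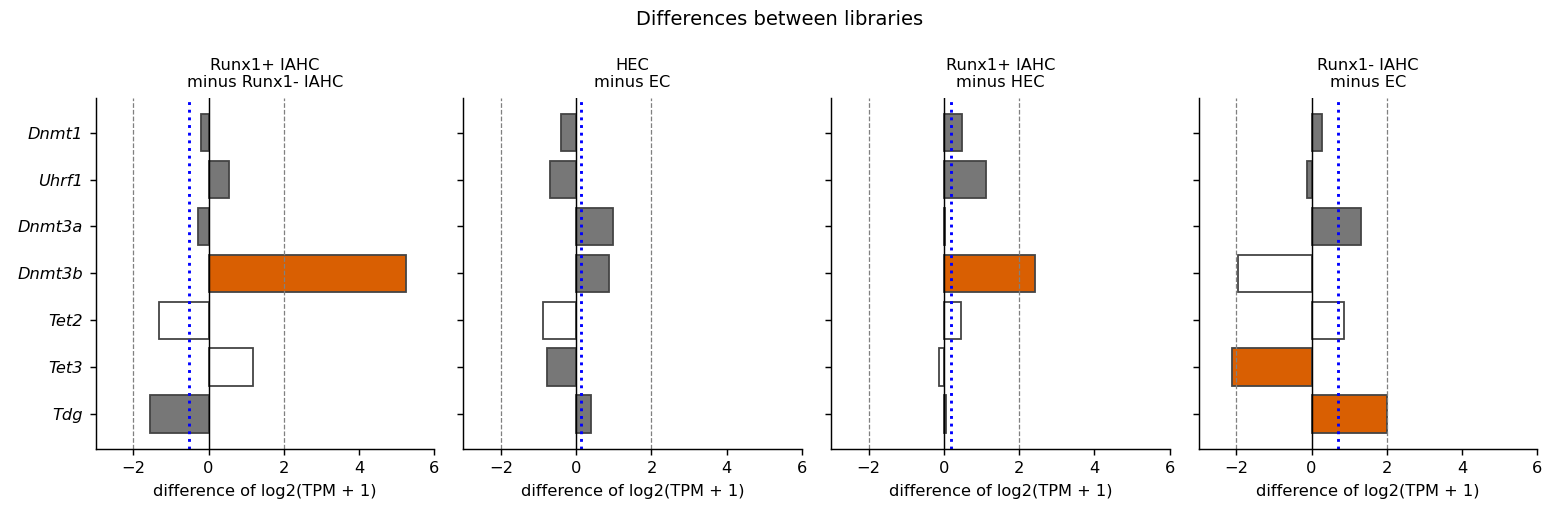
Differences of log2(TPM + 1) between pairs of libraries for the 7 genes with reads, with a positive bar meaning higher in the population named at the start of the panel title. Orange bars pass 4-fold (dashed lines at -2 and 2), white bars lie under 10 TPM in both libraries, and the dotted blue line is the median of all genes compared. Dnmt3b reaches 5.25 between the IAHC libraries.

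A further 48 genes of DNA methylation were grouped by role, and 46 were measured. Past 4-fold were 0 upwards and 6 downwards of 35 compared in Runx1+ against Runx1- IAHCs, where 5.6% and 17.5% of all genes were. In HECs against ECs they were 1 upwards and 2 downwards of 28, beside 8.87% and 9.24% of all genes. In Runx1+ IAHCs against HECs they were 0 of 28, beside 2.79% and 6.22%. In Runx1- IAHCs against ECs they were 8 upwards and 2 downwards of 35, beside 20.9% and 6.39%. These counts were near or below the shares of all genes, and the genes named next are single descriptions. Their median log2 differences were -0.52, -0.47, 0.46 and 0.66 in this order, beside medians over all genes of -0.53, 0.12, 0.19 and 0.71.

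Base excision repair completes the removal of methylated cytosine after Tdg, but not every gene listed under it acts after Tdg. The listed genes did not all follow 1 pattern, and some of them were highest in Runx1- IAHCs. Ung, a uracil DNA glycosylase, was at 10.1 TPM in Runx1+ IAHCs, 3.75 TPM in HECs, 95.5 TPM in Runx1- IAHCs and 4.56 TPM in ECs. Ung was 21.1-fold higher in Runx1- IAHCs than in ECs (18.3 to 24.3). Parp1, which senses DNA breaks, was at 56.4 TPM in Runx1+ IAHCs, 32.8 TPM in HECs, 204 TPM in Runx1- IAHCs and 34.6 TPM in ECs. Xrcc1, the scaffold of single-strand break repair, was 8.58-fold higher in Runx1- IAHCs than in ECs. In Runx1+ against Runx1- IAHCs, Ung was 9.46-fold lower (8.67 to 10.3) and Xrcc1 5.33-fold lower (4.81 to 5.92). Polb, the polymerase that fills the gap, was instead highest in HECs, at 18.4 TPM in Runx1+ IAHCs, 30.7 TPM in HECs, 20.3 TPM in Runx1- IAHCs and 18.1 TPM in ECs. The glycosylase gene Neil3 was at 5.76 TPM in Runx1+ IAHCs, 2.95 TPM in HECs, 6.56 TPM in Runx1- IAHCs and 7.37 TPM in ECs, and Neil2 had 0 reads in each library. Runx1- IAHCs thus had the highest level of Tdg, Ung, Parp1 and Xrcc1, although Tdg itself passed 4-fold against ECs alone, and there not under the other scalings.

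Genes that protect, target or read methylation also differed. Dppa3, which shields the maternal genome of the mouse zygote from demethylation and is expressed in primordial germ cells, had 0 reads in Runx1+ IAHCs and 3 reads in HECs, and was at 1866 TPM in Runx1- IAHCs and 119 TPM in ECs. Zfp57, which with Trim28 keeps imprinted regions methylated, was at 0.259 TPM in Runx1+ IAHCs, 1.82 TPM in HECs, 28.2 TPM in Runx1- IAHCs and 22.5 TPM in ECs. Zfp57 was thus low in both Runx1+ populations, 121-fold lower in Runx1+ than in Runx1- IAHCs (63.2 to 264) and 12.5-fold lower in HECs than in ECs (9.80 to 16.2). Its partner Trim28 was at 277 TPM in Runx1+ IAHCs, 132 TPM in HECs, 196 TPM in Runx1- IAHCs and 184 TPM in ECs, and did not follow Zfp57. Mbd3, a subunit of the NuRD complex, was at 45.7 TPM in Runx1+ IAHCs, 32.1 TPM in HECs, 276 TPM in Runx1- IAHCs and 35.2 TPM in ECs. Mbd2, which binds methylated CpG sites in NuRD, went the other way, at 20.3 TPM in Runx1+ IAHCs, 26.3 TPM in HECs, 5.17 TPM in Runx1- IAHCs and 24.8 TPM in ECs. Zbtb38, a zinc finger protein that binds methylated DNA, was 6.78-fold lower in Runx1+ than in Runx1- IAHCs (5.97 to 7.72).

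Of the maintenance partners, Uhrf2, the paralogue of Uhrf1, was 6.77-fold lower in Runx1- IAHCs than in ECs (6.04 to 7.60), whereas Uhrf1 differed 1.09-fold. Dmap1, a binding partner of Dnmt1, was 9.99-fold higher there (8.69 to 11.5). Pcna, the replication clamp, was at 304 TPM in Runx1+ IAHCs, 179 TPM in HECs, 301 TPM in Runx1- IAHCs and 196 TPM in ECs. Cdca7, which recruits the remodeller Hells, was at 92.8 TPM in Runx1+ IAHCs, 23.4 TPM in HECs, 96.2 TPM in Runx1- IAHCs and 50.5 TPM in ECs. Both were lowest in HECs, as Dnmt1 and Uhrf1 were. Of the genes linked to Tet function, Gadd45a, a stress protein, had 30.7 TPM in HECs, against 6.93 TPM in ECs, a log2 difference of 2.00 at the very limit of the rule. Cxxc5 and Ogt, partners of Tet proteins, were between 31.3 and 65.4 TPM and between 16.4 and 49.8 TPM. Of the genes that supply cofactors, Slc19a1, a folate carrier, was 5.17-fold higher in Runx1- IAHCs than in ECs. Idh2, a mitochondrial source of the Tet cofactor, was at 173 TPM in Runx1+ IAHCs, 55.3 TPM in HECs, 273 TPM in Runx1- IAHCs and 78.9 TPM in ECs. Mat2a, which makes the methyl donor, was at 134 TPM in Runx1+ IAHCs, 85.8 TPM in HECs, 112 TPM in Runx1- IAHCs and 130.1 TPM in ECs.

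**Figure D4:**
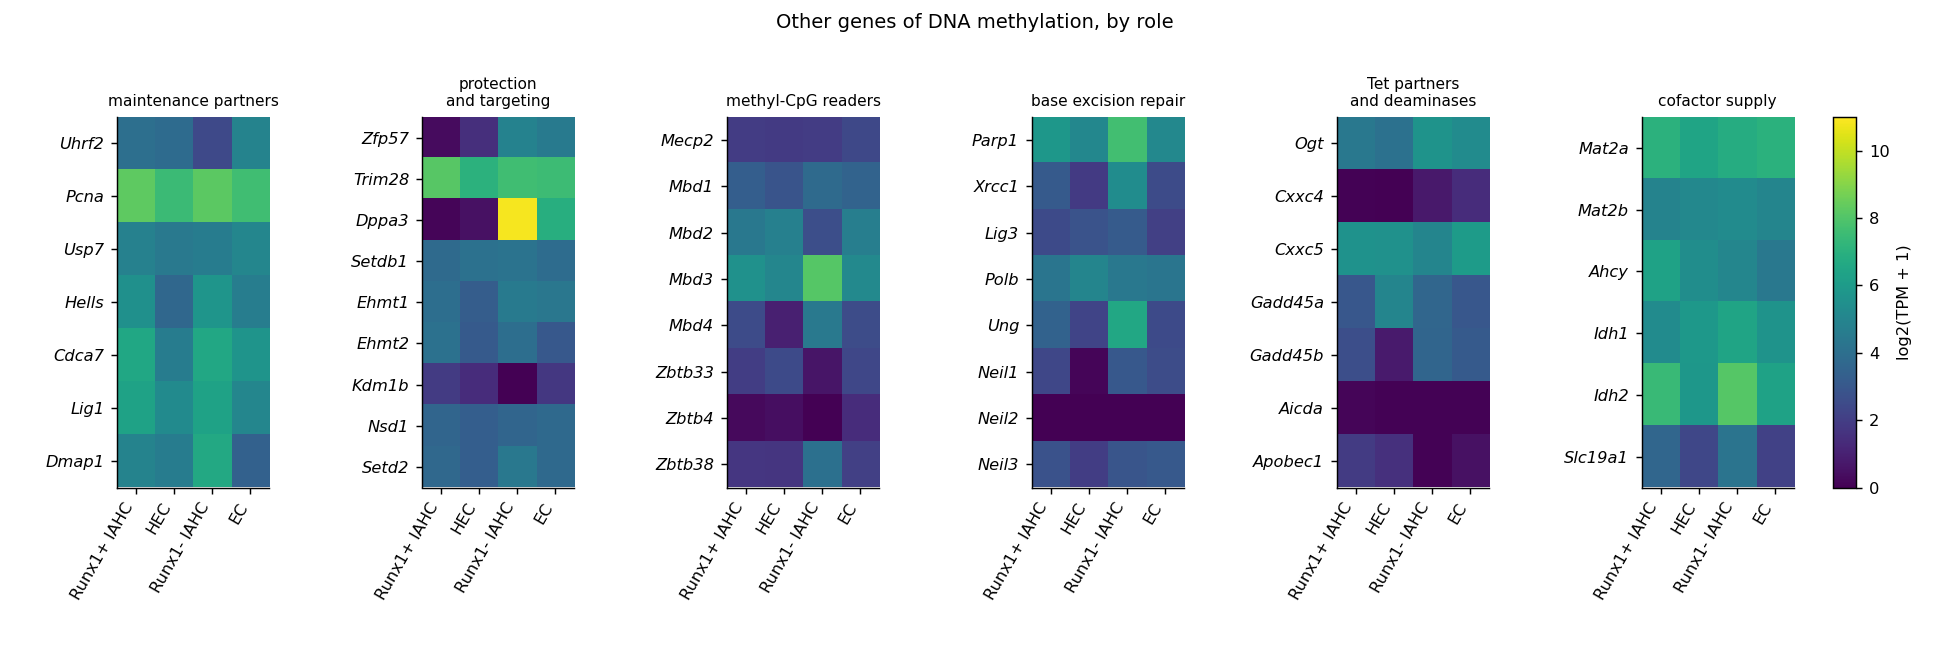
Levels as log2(TPM + 1) (colour) of other genes of DNA methylation in 4 libraries, grouped by role. Ung, Parp1 and Xrcc1 are brightest in Runx1- IAHCs, and Dppa3 and Zfp57 are dark in Runx1+ IAHCs and HECs.

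Germline genes whose promoters are known to be methylated in somatic mouse cells were read beside the writers. Of 13 such genes, 5 had a read in Runx1+ IAHCs, 2 in HECs, 10 in Runx1- IAHCs and 9 in ECs. Tex19.1, the gene shown with its promoter above, had 1 read in Runx1+ IAHCs and 0 in HECs, and was at 229.8 TPM in Runx1- IAHCs and 5.51 TPM in ECs. Asz1, a germ cell gene of transposon control, was without reads in Runx1+ IAHCs and at 25.4 TPM in Runx1- IAHCs, a level at least 244-fold lower in Runx1+ IAHCs (floor of 3 reads). Hormad1, a meiotic gene, was without reads in Runx1+ IAHCs and had 160 in Runx1- IAHCs, which made it at least 58.6-fold lower in Runx1+ IAHCs. Ddx4, a germ cell RNA helicase of the same list, was instead nearly level between the IAHC libraries, at 3.03 TPM (92 reads) in Runx1+ IAHCs and 3.36 TPM (93 reads) in Runx1- IAHCs, a ratio of 0.901 (0.668 to 1.22). The Runx1- IAHC library thus had the lowest Dnmt3b and the most of these genes with a read, and it also held primordial germ cell transcripts. All 10 germ cell markers (Dppa3, Prdm1, Prdm14, Tfap2c, Nanos3, Pou5f1, Nanog, Dnd1, Utf1 and Sox2) were at 12.5 TPM or more in Runx1- IAHCs. They summed to 4.17 TPM in Runx1+ IAHCs, 5.30 TPM in HECs, 2903 TPM in Runx1- IAHCs and 171 TPM in ECs. A read was found for 7 of them in Runx1+ IAHCs, 7 in HECs, 10 in Runx1- IAHCs and 10 in ECs. In Runx1+ IAHCs Dppa3, Prdm14 and Utf1 had no read, and in HECs Prdm1, Prdm14 and Pou5f1 had none. The part of these transcripts in the levels of Dnmt3b, Tdg, Tet2 and Tet3 was not tested.

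Markers of the sorted types also differed between the libraries. The 8 endothelial markers summed to 67.4 TPM in Runx1+ IAHCs, 252 TPM in HECs, 1893 TPM in Runx1- IAHCs and 1787 TPM in ECs, each with a read in every library. The 8 hematopoietic markers summed to 1227 TPM in Runx1+ IAHCs, 1529 TPM in HECs, 84.4 TPM in Runx1- IAHCs and 75.9 TPM in ECs, and Ptprc and Tyrobp had no read in Runx1- IAHCs. Plek and Itga2b, which megakaryocytes also express, carried the sum in HECs. Plek was at 71.6 TPM in Runx1+ IAHCs against 823 TPM in HECs, and Itga2b at 9.13 TPM in Runx1+ IAHCs against 215 TPM in HECs. Gene by gene, 5 of the 8 were past 2-fold higher and 2 past 2-fold lower in Runx1+ IAHCs than in HECs, with a median log2 difference of 1.71, and Dnmt3b was higher in the same pair. Ptprc was at 11.4 TPM in Runx1+ IAHCs and 0.246 TPM in HECs, and Myb at 33.4 TPM in Runx1+ IAHCs and 2.37 TPM in HECs. S phase genes summed to 1360 TPM in Runx1+ IAHCs, 803 TPM in HECs, 2604 TPM in Runx1- IAHCs and 771 TPM in ECs. The 7 pericyte and smooth muscle markers summed to 16.8 TPM in Runx1+ IAHCs, 57.8 TPM in HECs, 30.5 TPM in Runx1- IAHCs and 185 TPM in ECs. Mcam, which endothelial cells also express, made up 24.8 TPM of the sum in Runx1- IAHCs and 163 TPM in ECs, while the pericyte genes Cspg4 and Pdgfrb were at 0.217 TPM or less in both. The smooth muscle gene Acta2 instead carried the sum of HECs, with 51.0 TPM, and that of Runx1+ IAHCs, with 11.6 TPM. ECs also held Acta2, at 19.2 TPM, whereas Runx1- IAHCs had no read of it. The part of the hematopoietic, S phase and other markers in the levels of the members was not tested.

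**Figure D5:**
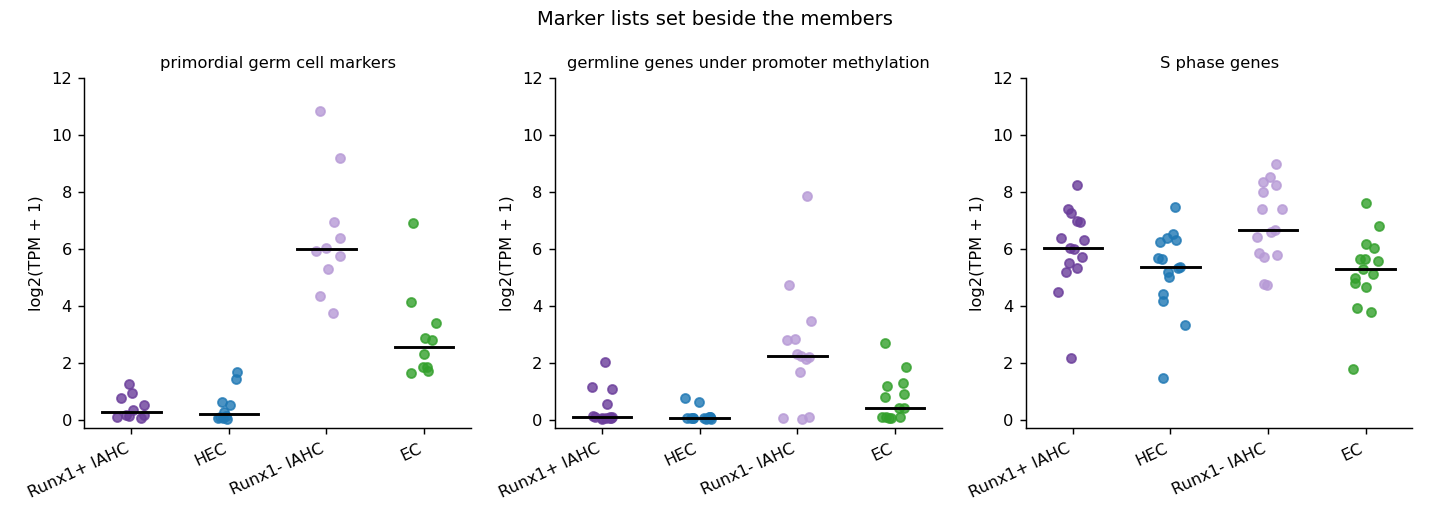
Levels as log2(TPM + 1) of 10 primordial germ cell markers, 13 germline genes under promoter methylation and 15 S phase genes in 4 libraries, 1 point per gene, with black lines at the medians. The germ cell markers sum to 5.30 TPM or less in Runx1+ IAHCs and HECs, 2903 TPM in Runx1- IAHCs and 171 TPM in ECs.

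The genes nearest in pattern were found for the 3 members at 10 TPM or more with the widest range, by the Euclidean distance of log2(TPM + 1) centred over the 4 libraries. For Dnmt3b these were Ltb, a lymphotoxin subunit (distance 0.24), Ctss, a lysosomal protease (0.38), and Milr1, an immunoglobulin-like receptor of mast cells (0.61). Ltb was at 45.6 TPM in Runx1+ IAHCs, 8.52 TPM in HECs, 0.0711 TPM in Runx1- IAHCs and 3.83 TPM in ECs. All 3 are known from hematopoietic cells. For Tet3 they were Ppm1a (0.14), Purb (0.17) and Hnrnpll (0.20), and for Tdg they included Zdhhc6 (0.083) and Trappc13 (0.10). With 4 libraries and many genes, near neighbours are a description only.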

How the data were processed

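Cells were sorted from E11 AGMs, and RNA of 4 populations was sequenced, with 1 library each. By the methods of the study, full-length cDNA was made from part of the lysate (Smarter2; the labels name a SMARTER mRNA kit), tagged with Nextera XT and read as short single reads. By the submitters' processing notes HISAT2 2.0.4 aligned the reads to GRCm38, and by the methods genes were counted in union mode with GENCODE; use of strand is not given in the sources used here. The authors deposited TPM values on a linear scale. The same workbook held 9 columns of other libraries, which were not used.

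Python 3.11.15 with pandas 2.3.3, numpy 2.4.6 and SciPy 1.17.1 was used. TPM multiplied by exonic length, taken from GENCODE M21 (GRCm38), gave whole multiples (within 0.01 reads) of 1 step per library for 49371 genes (96.4%), all 8 members among them. For the other 1834 genes a length was searched. Since no value was 0, 1 read was taken as added to every gene and subtracted. Folds compare recovered reads after division by the steps, with Clopper-Pearson intervals, and levels carry exact Poisson intervals. Folds against a library without a read used a floor of 3 reads. Differences were taken on log2(TPM + 1) for genes that reached 10 TPM in either library, and counted at 4-fold.

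Named were the 9 members, other methylation genes past 4-fold, the 2 of each list with the highest mean, and 3 nearest patterns for each of 3 members. Results of some genes named by this rule are left out. Members and lists were chosen with earlier results of these data known. The lists overlap, with Dppa3 in the protection and germ cell lists and Pcna in the maintenance and S phase lists. Alternatives were pseudocounts of 0.1 and 5, minimum levels of 1 and 50 TPM and none, median-ratio scaling, scaling to a total that left out mitochondrial, ribosomal protein and hemoglobin genes, and a 2-fold rule. Removal of the added read was chosen after seeing the data. Recovery of reads and the 4-fold rule were tested on simulated libraries. There the rule was applied after centring on unchanged genes, which was not done for the reported counts.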

Additional observations from a re-analysis of the deposited data

Results flagged for a closer look

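For 4 members the difference between Runx1+ and Runx1- cells had opposite directions in ckit+ and in ckit- cells, with counting intervals that excluded 1 on both sides. With 1 library per population the difference between these differences was not tested. On the log2(TPM + 1) scale Uhrf1 was at 0.54 in Runx1+ against Runx1- IAHCs and at -0.71 in HECs against ECs. Dnmt3a was at -0.29 in Runx1+ against Runx1- IAHCs and at 0.97 in HECs against ECs. Tet3 was at 1.18 in Runx1+ against Runx1- IAHCs and at -0.79 in HECs against ECs. Tdg was at -1.55 in Runx1+ against Runx1- IAHCs and at 0.40 in HECs against ECs, and HECs and ECs differed 1.12-fold with the reads of Tdg-ps added. These 8 signs were kept under both other scalings and both other pseudocounts, and with the added read removed. The summed reads of Tdg and Tdg-ps were not put through these settings. Median-ratio scaling lowers HECs against ECs 1.15-fold, which is more than the summed 1.12-fold, so the direction with Tdg-ps depends on scaling. Relative to the median of all genes, however, Dnmt3a was 0.24 higher in Runx1+ against Runx1- IAHCs and 0.85 higher in HECs against ECs. By that measure its directions were not opposite. The Runx1- IAHC library held primordial germ cell markers at 2903 TPM and came from the fewest cells, and their part was not tested.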

How the results depend on the processing

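No paired analysis was possible because each population had 1 library, and for the same reason no replicate could be left out. The number of members past 4-fold was 2 in Runx1- IAHCs against ECs and 0 there with a pseudocount of 5 or a minimum of 50 TPM. With a 2-fold rule it was 2 in place of 1 in Runx1+ against Runx1- IAHCs (Dnmt3b and Tdg) and 2 in place of 1 in Runx1+ IAHCs against HECs (Dnmt3b and Uhrf1). Under median-ratio scaling and under scaling to a total free of mitochondrial, ribosomal protein and hemoglobin genes the count of 2 in Runx1- IAHCs against ECs was made by Dnmt3b and Tet3 in place of Tdg and Tet3. Dnmt3b was past 4-fold in both comparisons of Runx1+ IAHCs under every alternative, with log2 differences of 4.03 to 5.80 against Runx1- IAHCs and 2.22 to 2.49 against HECs. Of 28 differences of members with reads, 25 kept their sign in all 5 other settings. Under median-ratio scaling Dnmt3a and Tdg turned to -0.15 and -0.12 in Runx1+ IAHCs against HECs and Dnmt1 to -0.23 in Runx1- IAHCs against ECs, none of them past 4-fold. That scaling put the medians of all genes at -0.40 for Runx1+ against Runx1- IAHCs, -0.14 for HECs against ECs, -0.05 for Runx1+ IAHCs against HECs and 0.08 for Runx1- IAHCs against ECs.

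In the same order of comparisons, all genes past 4-fold were 2013, 1411, 656 and 2438. They were 1055, 792, 344 and 1306 with a pseudocount of 5, 710, 528, 246 and 1044 at a minimum of 50 TPM, and 4682, 3225, 1980 and 5284 by a 2-fold rule, and the first pair of comparisons gave 3142 and 2149 at 1 TPM or with no minimum. The other DNA methylation genes past 4-fold were 6, 3, 0 and 10. They were 15, 9, 8 and 16 by a 2-fold rule, and 3, 1 and 5 at a minimum of 50 TPM in the comparisons other than Runx1+ IAHCs against HECs. With a pseudocount of 5 they were 6 in Runx1- IAHCs against ECs, and at a minimum of 1 TPM or none 5 in HECs against ECs. In Runx1+ IAHCs against HECs the count was 1 in place of 0 under 6 settings, namely a pseudocount of 0.1, a minimum of 1 TPM, no minimum, both other scalings and the added read removed. Depth limits Dnmt3l, with no read in any library, and the 84 reads of Dnmt3b in Runx1- IAHCs.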
